A study of Mus musculus with 8 samples.

Results

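The genes described here are 49 splicing factor genes, taken by name: 5 that read the 3′ splice site, 6 of the U2 snRNP, 6 other core spliceosome genes, 12 SR and SR-related genes, 12 hnRNP genes and 8 other regulators. The Ensembl identifiers of the count table were mapped to symbols with GENCODE M1, and each of the 49 names found a row among 37991 gene IDs. All 49 passed the filter on low counts, which left 13722 genes for testing.

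The study measured RNA in B-cell-biased lymphoid progenitors (BLPs), early bone marrow cells that give rise mainly to B cells, from H2afy-/- and H2afy+/+ mice. H2afy encodes macroH2A1, a large histone variant with an added macro domain. Each genotype has 4 samples, called pools here, and a pool holds RNA of 5000 to 15000 sorted BLPs from 2 to 3 mice aged 5 to 12 weeks. Bone marrow was first enriched for Kit-positive cells, and no other allele, agent or treatment is named for either group. The labels do not give the deleted stretch of H2afy or say whether pools share animals, so p-values here cover only differences among these pools, which may be technical.

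Splicing removes introns in steps. The U1 snRNP marks the 5′ splice site, while SF1 and the U2AF heterodimer (U2AF1 and U2AF2) mark the branch point, the pyrimidine tract and the AG at the 3′ splice site before the U2 snRNP joins. SR proteins mostly help exons to be included, hnRNP proteins often repress them, and factors such as MBNL and Quaking act in either direction depending on where they bind. Mutations in U2AF1, SF3B1, SRSF2 and ZRSR2 recur in human myeloid neoplasms. The series title ties mutant U2AF1 to alternative splicing of H2afy, and the samples compared here differ in H2afy and carry no stated splicing factor mutation.

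H2afy is itself spliced in 2 forms through a pair of mutually exclusive exons, and MBNL1 and Quaking are known regulators of that choice. The 3′ splice sites of both exons are shown because they belong to the gene that differs between the groups, and 3′ splice sites are the kind of sequence that U2AF reads. Both lie on the minus strand of NCBIM37 (mm9) chromosome 13, in introns directly before the exon, and each is printed 5′ to 3′ on the transcript strand. Capitals mark the last 3 bases of the intron.

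macroH2A1.2 exon (100 bases), site at chr13:56191219-56191248: ttatttcccacctcatgcttctcttttCAG
macroH2A1.1 exon (91 bases), site at chr13:56189704-56189733: agttgatgtacatctgtttacctgttaTAG

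The macroH2A1.2 site ends in CAG and the macroH2A1.1 site in TAG. In the annotated introns of all protein-coding genes, very short ones left out, 200218 3′ splice sites ended in AG. Of these AG sites, 64.5% ended in CAG and 28.8% in TAG. The 49 splicing factor genes had 617 such sites of their own, 52.5% ending in CAG (324 sites), 37.8% in TAG (233), 8.75% in AAG (54) and 0.972% in GAG (6). The letters ACTAAC and ACTAAT, taken as forms of the Quaking motif, were searched on the transcript strand only. Neither occurred in the 300 bases before or after either exon. Of 184091 internal exons of the annotation, 9.60% held 1 of them in the 300 bases before and 8.02% in the 300 bases after. The deposited values are counts per gene, so the use of either exon was not measured here.

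Pools held 21330088 to 29029765 counts. The 9 progenitor markers were present in every group, with a summed level of 6372 to 7928 CPM (counts relative to the TMM-scaled library total) in H2afy-/- and 8179 to 9939 CPM in H2afy+/+ pools. Immunoglobulin genes took 0.402% to 39.0% of all counts, and were highest in H2afy-/- pools 3 (39.0%) and 4 (33.4%). The 7 plasma cell markers summed to 176 to 20630 CPM in H2afy-/- and 594 to 9136 CPM in H2afy+/+ pools, and none was at 0 in all pools. H2afy itself stood at 1953, 1744, 1423 and 1517 CPM in H2afy-/- pools 1 to 4 and at 2455, 2567, 2063 and 1981 CPM in H2afy+/+ pools, a log2 fold change of -0.45 (SE 0.15, edgeR quasi-likelihood adjusted p = 0.504). Counts over the whole gene therefore do not check the genotype labels. In these bulk samples, fewer cells of a type and less RNA per cell cannot be told apart.

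Between genotypes, the splicing factor genes differed little and none was called. The edgeR quasi-likelihood test, with Benjamini-Hochberg adjustment over all 13722 genes, called 0 of 49 at 0.05, where percent called among all genes was 0. Their adjusted p-values ran from 0.633 to 0.996. At an unadjusted p under 0.05 there was 1 member, Snrpb (2.04%), against 7.58% of all genes tested (1040 genes). Snrpb was higher in H2afy-/- pools, as were 3.88% of all genes at that level, and 0 members were lower, against 3.69%. DESeq2 also called 0 of the 49 after adjustment, where it called 0.993% of all genes. Log2 fold changes, written as H2afy-/- over H2afy+/+, ran from -0.29 for Hnrnpd to 0.34 for Snrpb. For 46 of the 49 genes the 95% interval lay within a 2-fold change in either direction, and for 34 within 1.5-fold. The share of all genes within these bounds was not counted. The median SE was 0.16 for the 49 genes and 0.23 for all genes tested. The exceptions to the 2-fold bound were Prpf19, Srsf2 and Hnrnpl.

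Most of the small differences had the same sign. Of the 49 genes, 39 (79.6%) had a negative log2 fold change, against 49.9% of all genes tested, and their median was -0.13 against 0.00 for all genes. By role, the negative values were 3 of 5 for 3′ splice site recognition (median -0.21), 6 of 6 for the U2 snRNP (median -0.15), 3 of 6 for other core genes (median 0.09), 11 of 12 for SR genes (median -0.13), 11 of 12 for hnRNP genes (median -0.14) and 5 of 8 for other regulators (median -0.08). Without H2afy-/- pools 3 and 4, the pools with the highest immunoglobulin share, 25 of 49 were negative and the median was -0.01, where 50.2% of all genes were negative. With the immunoglobulin share as a covariate, 37 were negative and the median was -0.09. Markers of other cell types had summed levels that overlapped between the groups, while the summed progenitor markers did not overlap. That sum was 6372 to 7928 CPM in H2afy-/- and 8179 to 9939 CPM in H2afy+/+ pools. At an edgeR unadjusted p under 0.05, 6 of the 9 progenitor markers were lower in H2afy-/- pools, against 3.69% of all genes tested. The signs of the log2 fold changes of all these markers are given here as description. Plasma cell markers had a positive log2 fold change for 7 of 7 genes (median 1.27), plasmacytoid dendritic markers for 4 of 4 (median 0.25) and monocyte and granulocyte markers for 2 of 5 (median -0.32). Negative values were 7 of 9 for progenitor markers (median -0.50), 4 of 4 for erythroid and megakaryocyte markers (median -1.71) and 1 of 1 for T cell markers (-0.19). None of these markers was called, and their part in the shift of the splicing factor genes was not tested. The erythroid and megakaryocyte markers summed to 1.46 to 8.99 CPM in H2afy-/- and 1.93 to 36.4 CPM in H2afy+/+ pools, and the monocyte and granulocyte markers to 703 to 2511 and 1000 to 4471 CPM.

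**Figure D1:**
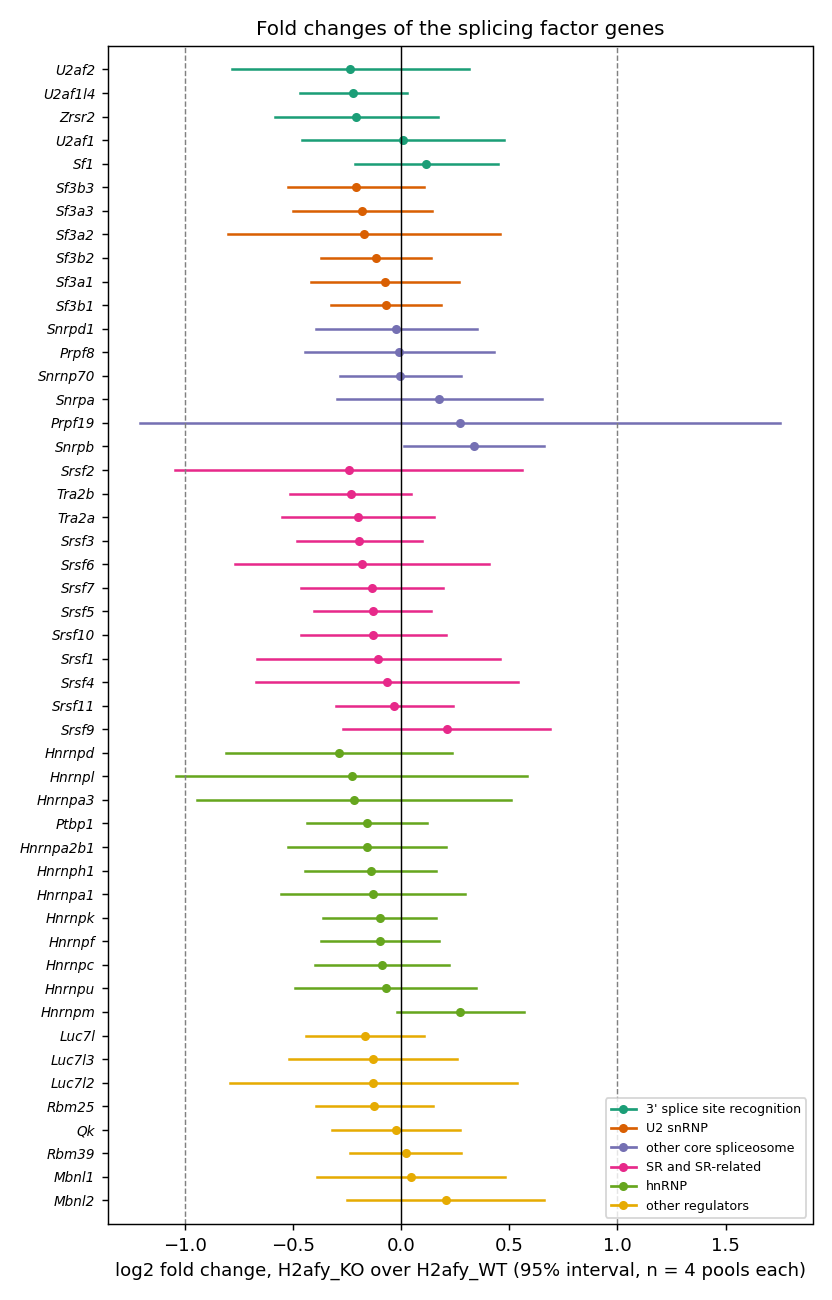
Log2 fold change of each splicing factor gene, H2afy-/- over H2afy+/+ (x axis), with its 95% interval from the edgeR quasi-likelihood fit, genes grouped by role on the y axis. Most points lie between -0.29 and 0 and all intervals except that of Snrpb (0.01 to 0.66) cross 0.

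Of the genes that read the 3′ splice site, U2af1 encodes the small U2AF subunit, which contacts the AG. Its locus is chr17:31784027-31795699 on the minus strand. Its level was 48.3, 30.2, 41.2 and 37.3 CPM in H2afy-/- pools 1 to 4 and 52.3, 28.2, 32.6 and 42.9 CPM in H2afy+/+ pools 1 to 4. Both pools numbered 1 were the highest and both numbered 2 the lowest, and the groups overlapped. The means were 39.2 ± 7.54 and 39.0 ± 10.8 CPM (SD, n = 4 each), a log2 fold change of 0.01 (SE 0.21, 95% interval -0.46 to 0.48).

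U2af2 encodes the large U2AF subunit, which binds the pyrimidine tract (chr7:5013745-5031534, plus strand). It was at 9.27, 5.74, 8.43 and 9.37 CPM in H2afy-/- pools and at 13.1, 7.02, 8.66 and 9.84 CPM in H2afy+/+ pools. Again the pool numbered 2 was lowest in each genotype. Its log2 fold change was -0.24 (SE 0.25, 95% interval -0.78 to 0.31).

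U2af1l4, a shorter paralog of U2af1, was the only one of the 49 whose groups did not overlap (2.04%, where 4.53% of all genes did not, 2.35% lower and 2.18% higher in H2afy-/- pools). H2afy-/- pools held 48.99, 55.8, 51.3 and 55.0 CPM and H2afy+/+ pools 67.0, 59.0, 59.8 and 60.3 CPM. Every H2afy-/- pool was thus below every H2afy+/+ pool, by a small margin between pool 2 of each genotype. The means were 52.8 ± 3.17 and 61.5 ± 3.69 CPM (SD, n = 4 each). The log2 fold change of -0.22 (SE 0.11, 95% interval -0.47 to 0.03) had an edgeR adjusted p of 0.690.

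Sf1, the branch point binding protein, was at 60.6, 58.8, 62.3 and 58.3 CPM in H2afy-/- and at 58.1, 70.4, 46.1 and 46.9 CPM in H2afy+/+ pools. The H2afy-/- pools lay inside the range of the H2afy+/+ pools, with a log2 fold change of 0.12 (SE 0.15, 95% interval -0.21 to 0.45). Zrsr2, which recognises the 3′ splice site of minor introns, averaged 20.4 ± 3.83 and 23.5 ± 2.38 CPM (SD, n = 4 each) in H2afy-/- and H2afy+/+ pools.

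The U2 snRNP genes held the steadiest member. Sf3b1, whose product clamps the branch point helix (chr1:55042013-55084322, minus strand), was at 517, 528, 539 and 587 CPM in H2afy-/- and at 591, 564, 535 and 593 CPM in H2afy+/+ pools. Its highest pool was 1.15 times its lowest, and its coefficient of variation (CV, SD over mean) over 8 pools was 5.50%. The log2 fold change was -0.07 (SE 0.12, 95% interval -0.33 to 0.18). Sf3b2, another SF3b subunit, had the highest level per length of this class at 145 CPM per kb of annotated exon. It was at 486, 429, 421 and 458 CPM in H2afy-/- and 489, 512, 466 and 480 CPM in H2afy+/+ pools, which overlapped.

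Sf3b3, an SF3b scaffold protein, was at 385, 295, 276 and 315 CPM in H2afy-/- pools and at 417, 344, 335 and 374 CPM in H2afy+/+ pools. Within each replicate number the H2afy-/- pool was the lower, while H2afy-/- pool 1 exceeded 3 of the H2afy+/+ pools. What the replicate numbers mark is not stated, so it is uncertain, here and below, that same-numbered pools are pairs. The log2 fold change of Sf3b3 was -0.21 (SE 0.14, 95% interval -0.52 to 0.10, edgeR adjusted p = 0.768). The 3 SF3a genes, whose complex bridges SF3b to the rest of the U2 snRNP, had log2 fold changes of -0.08 (Sf3a1), -0.17 (Sf3a2) and -0.18 (Sf3a3), and all 3 were highest in the pool numbered 1 of both genotypes. Sf3a2 was low for its class, at 3.91 to 8.75 CPM, and it overlaps Plekhj1 on the opposite strand, whose reads an unstranded library cannot separate.

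Among the other core genes, Snrpb encodes SmB, a protein of the ring shared by the spliceosomal snRNPs (chr2:129997150-130005139, minus strand). It was at 126, 86.6, 108 and 117 CPM in H2afy-/- pools 1 to 4 and at 102, 74.2, 84.9 and 85.3 CPM in H2afy+/+ pools. In every replicate number the H2afy-/- pool was the higher, but H2afy-/- pool 2 lay inside the H2afy+/+ range. The means were 109 ± 17.1 and 86.6 ± 11.6 CPM (SD, n = 4 each). Its log2 fold change of 0.34 (SE 0.15, 95% interval 0.01 to 0.66) had an edgeR adjusted p of 0.633, and 0.220 with the replicate number as a block.

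Prpf19, the ubiquitin ligase that names the Prp19 complex, varied most between pools of all 49 genes, with a CV of 54.0%. H2afy-/- pools had 36.4, 10.0, 27.8 and 37.3 CPM and H2afy+/+ pools 41.5, 9.81, 8.79 and 32.2 CPM. Both pools numbered 2 and H2afy+/+ pool 3 were near 10 CPM, and the other 5 pools were at 27.8 CPM or above. The log2 fold change of 0.27 carried an SE of 0.63 and a 95% interval of -1.21 to 1.75, which holds changes of over 2-fold in both directions. With 1 pool left out it ran from 0.0032 without H2afy+/+ pool 3 to 0.71 without H2afy+/+ pool 1. Snrpd1, also an Sm ring protein, was the highest of its class per length at 129 CPM per kb, with 132, 100, 107 and 91.0 CPM in H2afy-/- and 142, 89.9, 96.2 and 108 CPM in H2afy+/+ pools. Prpf8, the scaffold of the catalytic centre, and the U1 proteins Snrnp70 and Snrpa had log2 fold changes of -0.01, -0.01 and 0.18.

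Of the SR and SR-related genes, Srsf9 had a positive log2 fold change (0.21, SE 0.22) and the other 11 a negative one. Tra2b, which promotes inclusion of exons with GA-rich enhancers, was at 317, 346, 308 and 356 CPM in H2afy-/- and at 338, 395, 388 and 442 CPM in H2afy+/+ pools. The H2afy-/- pool was lower in each replicate number, and the groups overlapped. Its means were 332 ± 23.1 and 391 ± 42.3 CPM (SD, n = 4 each), with a log2 fold change of -0.24 (SE 0.13, 95% interval -0.52 to 0.05, edgeR adjusted p = 0.708). Its paralog Tra2a was at 30.2 to 47.4 CPM.

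Srsf3, a small SR protein that also acts in mRNA export, was at 460, 402, 393 and 417 CPM in H2afy-/- and at 543, 433, 424 and 513 CPM in H2afy+/+ pools. Only H2afy-/- pool 1 reached into the H2afy+/+ range, and the log2 fold change was -0.19 (SE 0.13, 95% interval -0.48 to 0.10, edgeR adjusted p = 0.768). Srsf7, an SR protein with a zinc knuckle, had the highest level of the class at 412 CPM per kb. It was at 1111, 1006, 799 and 818 CPM in H2afy-/- and at 1135, 893, 1070 and 1007 CPM in H2afy+/+ pools, which overlapped.

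Srsf2, which marks exons through its enhancer sites, varied widely within each genotype. It was at 119, 251, 121 and 122 CPM in H2afy-/- pools and at 116, 271, 214 and 126 CPM in H2afy+/+ pools. The pools numbered 2 and H2afy+/+ pool 3 were at 214 CPM or above, and the other 5 at 126 CPM or below. With that spread the log2 fold change of -0.24 had an SE of 0.35 and a 95% interval of -1.05 to 0.56. Srsf2 overlaps Mfsd11 and 1110005A03Rik on the opposite strand. At the other end of the level scale, Srsf4 was the lowest of the 49 genes at 0.730 CPM per kb.

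**Figure D2:**
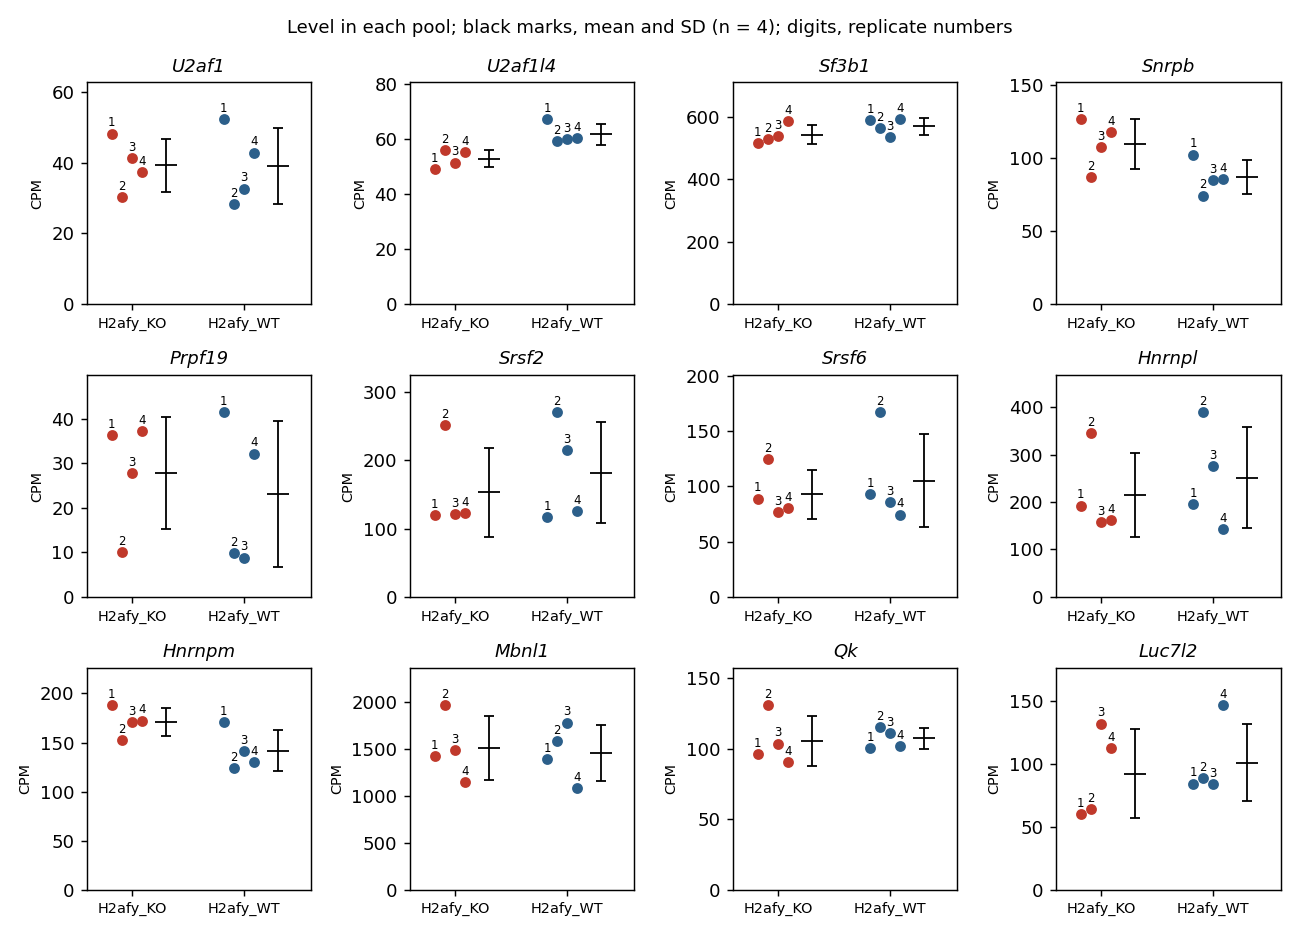
CPM (y axis) of selected splicing factor genes in each pool, with H2afy-/- (KO) and H2afy+/+ (WT) pools side by side, the replicate number over each point, and the group mean and SD in black. U2af1l4 shows separate groups, Snrpb overlaps through H2afy-/- pool 2 (86.6 CPM), and Srsf2 and Hnrnpl are raised in the pools numbered 2.

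The hnRNP genes included the most abundant members. Hnrnpa2b1, which binds UAG-type motifs and represses exons, was highest of all 49 per length at 619 CPM per kb (520 to 807 over the pools), followed by Hnrnpk at 552 (491 to 597) and Srsf7 at 412 (336 to 478). The pool ranges of the first pair overlapped, so their order does not hold in every pool, while Srsf7 stayed below both. Hnrnpa2b1 was at 2924, 2146, 2331 and 2254 CPM in H2afy-/- and at 3329, 2197, 2409 and 2834 CPM in H2afy+/+ pools. The pool numbered 1 was highest and the pool numbered 2 lowest in both genotypes, and the log2 fold change was -0.16 (SE 0.17, 95% interval -0.52 to 0.21).

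Hnrnpm, which binds GU-rich sites, was the only hnRNP gene of the 12 with a positive log2 fold change. It was at 188, 153, 171 and 172 CPM in H2afy-/- pools and at 171, 124, 141 and 130 CPM in H2afy+/+ pools. The H2afy-/- pool was the higher in every replicate number, and H2afy-/- pools 2 and 3 lay within the H2afy+/+ range. Means of 171 ± 14.5 and 142 ± 20.9 CPM (SD, n = 4 each) gave a log2 fold change of 0.27 (SE 0.13, 95% interval -0.02 to 0.57, edgeR adjusted p = 0.682).

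Ptbp1, the polypyrimidine tract binding protein, a repressor of many exons, was at 352, 290, 307 and 277 CPM in H2afy-/- and at 357, 350, 305 and 356 CPM in H2afy+/+ pools, with a log2 fold change of -0.16 (SE 0.13, 95% interval -0.44 to 0.12). Hnrnpd (AUF1), which also binds AU-rich mRNA elements, had the lowest log2 fold change, -0.29 (SE 0.24, 95% interval -0.81 to 0.23). Its H2afy-/- pools held 65.4, 59.7, 54.2 and 58.1 CPM and its H2afy+/+ pools 71.8, 111, 64.2 and 43.4 CPM. The H2afy+/+ pools thus lay on both sides of all H2afy-/- pools, and without H2afy+/+ pool 2 the log2 fold change was -0.01, within a range of -0.47 to -0.01 over the 8 pools left out in turn. Hnrnpl, which binds CA repeats, was at 193, 345, 158 and 162 CPM and at 196, 390, 276 and 143 CPM, with the same high pools as Srsf2. The other hnRNP genes, among them Hnrnpa1, Hnrnpc and Hnrnpu, had log2 fold changes of -0.22 (Hnrnpa3) to -0.07 (Hnrnpu).

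Of the other regulators, Mbnl1 (chr3:60277032-60433670, plus strand) was at 1422, 1964, 1483 and 1144 CPM in H2afy-/- pools and at 1389, 1584, 1778 and 1079 CPM in H2afy+/+ pools. The groups covered nearly the same range, with pool 4 lowest in both, and the log2 fold change was 0.04 (SE 0.20, 95% interval -0.39 to 0.48). Mbnl1 was the highest of this class at 262 CPM per kb. Mbnl2, its paralog, was at 67.7, 63.2, 113 and 92.1 CPM and at 64.1, 56.7, 83.9 and 86.5 CPM. In both genotypes the pools numbered 3 and 4 were above those numbered 1 and 2, and the log2 fold change was 0.20 (SE 0.21, 95% interval -0.25 to 0.66).

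Qk encodes Quaking, an RNA-binding protein of the STAR family (chr17:10399336-10512245, minus strand). It was at 96.3, 131, 104 and 90.5 CPM in H2afy-/- and at 100, 115, 111 and 102 CPM in H2afy+/+ pools, with pool 2 highest in both. The log2 fold change of -0.03 had an SE of 0.13 and a 95% interval of -0.32 to 0.27. Luc7l, a U1-associated factor, was at 135, 151, 128 and 138 CPM in H2afy-/- and at 141, 159, 140 and 182 CPM in H2afy+/+ pools (log2 fold change -0.17, SE 0.12, 95% interval -0.44 to 0.11). Its paralogs Luc7l2 and Luc7l3 had -0.13 each, and the splicing coactivators Rbm25 and Rbm39 had -0.13 and 0.02.

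**Figure D3:**
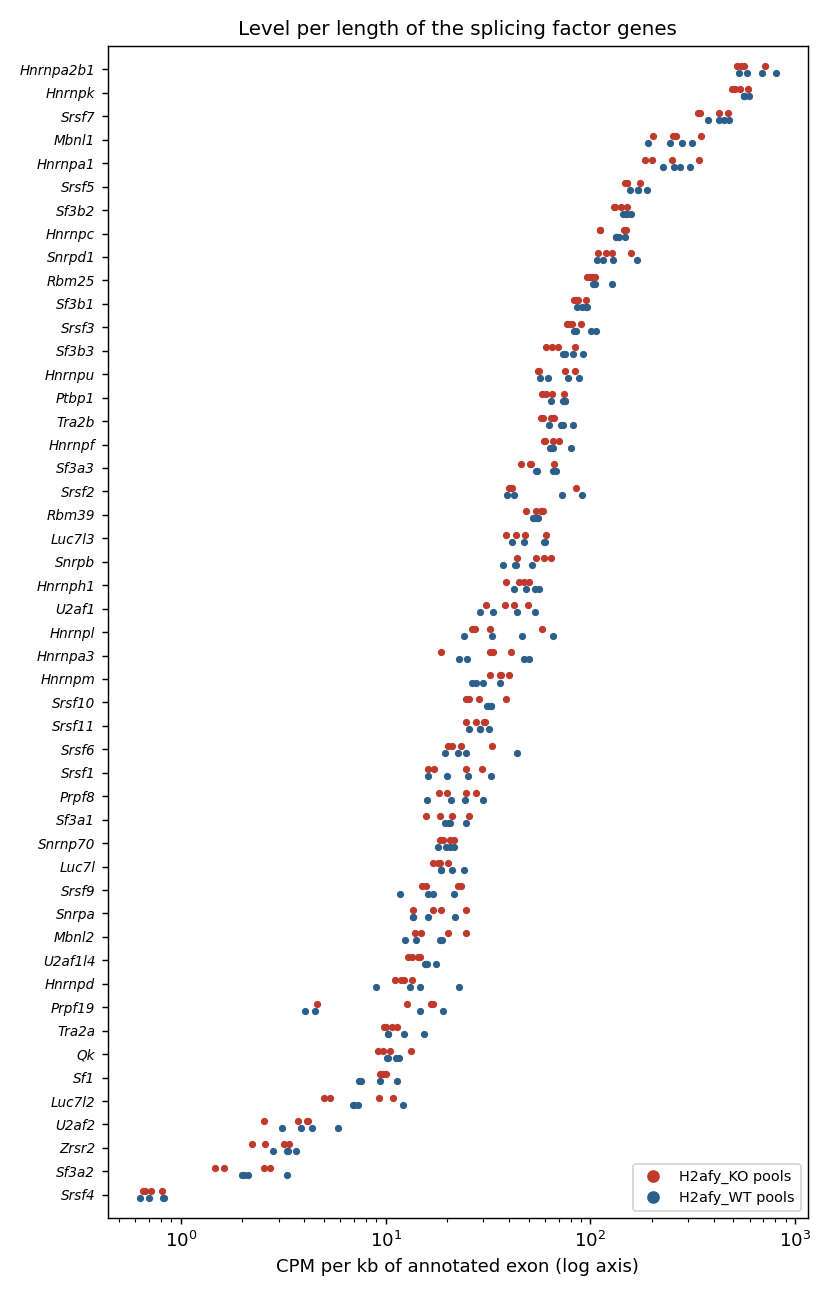
Level of each splicing factor gene in CPM per kb of annotated exon on a log axis, 1 row per gene in order of the mean over 8 pools. Each point is 1 pool, H2afy-/- (KO) in red and H2afy+/+ (WT) in blue. Means run from 0.730 (Srsf4) to 619 CPM per kb (Hnrnpa2b1).

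The 49 genes had a lower spread between pools than the median gene. Their median CV over 8 pools was 15.2%, against 23.1% for all genes tested. For 10 of 49 (20.4%) the highest pool was at least 2 times the lowest, against 49.2% of all genes. Genes were not matched by count level here, so the part of level in the lower spread was not tested. The highest and lowest values were unevenly spread over the pools. H2afy+/+ pool 1 was the highest pool for 16 genes (32.7%, against 12.3% of all genes) and H2afy-/- pool 3 for 1. H2afy-/- pools 3 and 4 were the lowest for 11 and 9 genes (22.4% and 18.4%, against 16.0% and 10.6% of all genes), and the median deviation from each gene's own mean was -0.11 on the log2 scale in both. It was 0.13 in H2afy+/+ pool 1, while over all genes tested it was 0.00 to 0.01 in every pool. As a share of all counts outside immunoglobulin genes, the 49 genes made up 1.68% in H2afy-/- pool 3, 1.69% in H2afy-/- pool 4 and 1.84% to 1.96% in the other 6 pools.

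Highest and lowest pools often shared a replicate number. The pool numbered 1 was the highest in both genotypes for 16 of 49 genes (32.7%, against 10.7% of all genes tested), among them U2af1, Sf3a1, Sf3a2, Sf3a3, Sf3b3, Snrpb, Srsf3, Srsf7, Hnrnpa2b1, Hnrnpk, Hnrnpm and Ptbp1. The pool numbered 2 was highest in both for another 10 genes (20.4%, against 12.2%), among them Srsf1, Srsf2, Srsf6, Srsf10, Hnrnpl, Hnrnpu and Qk, and lowest in both for 8 genes (16.3%, against 10.7%), U2af1, U2af2, Snrpa, Snrpb, Hnrnpa2b1, Hnrnpa3, Hnrnpm and Mbnl2. With the replicate number as a block, 4 of the 49 genes had an edgeR unadjusted p under 0.05 (12% of all genes tested did), Snrpb and Hnrnpm higher and Tra2b and Sf3b3 lower in H2afy-/- pools. Their adjusted p-values with the block were 0.220, 0.304, 0.387 and 0.401, so none was called, where the block called 0.109% of all genes.

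**Figure D4:**
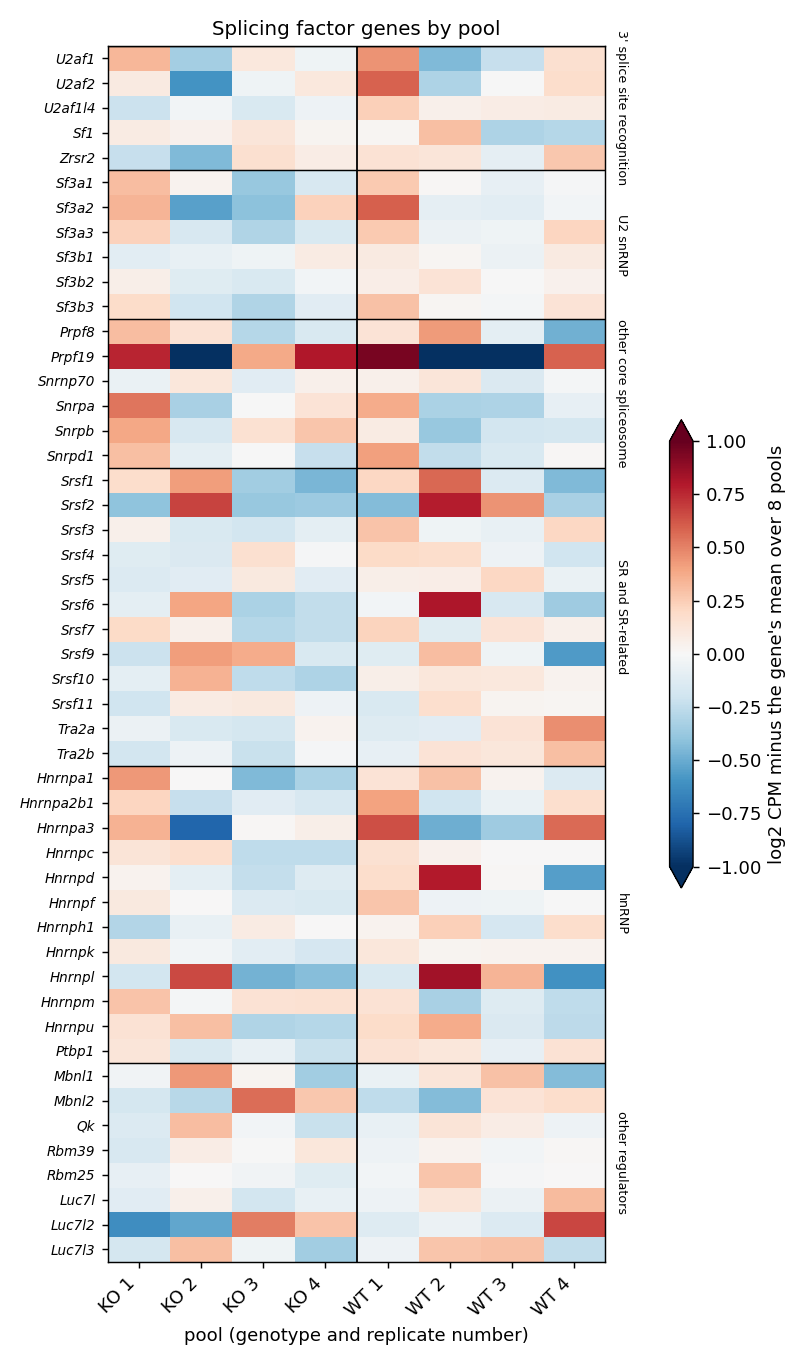
Deviation of each splicing factor gene from its own mean over 8 pools (log2 CPM, colour), with genes in rows by role and pools in columns by genotype. H2afy+/+ pool 1 is mostly above the gene means (median 0.13) and H2afy-/- pools 3 and 4 mostly below (median -0.11 each).

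Some members share sequence with other loci, and how the counting treated reads with several matches was not stated. Over 10% of a gene's 50-base exon stretches recurred exactly elsewhere in NCBIM37 for 14 of the 49 genes and over 50% for 5, Hnrnpa1 (84.3%), Hnrnpa3 (82.5%), U2af1 (78.0%), Hnrnpf (71.6%) and U2af2 (51.0%). The levels of these 5 are uncertain for that reason. Gm10232, an annotated pseudogene that matched 78.0% of the stretches of U2af1, held 8 counts over the 8 pools, against 7996 for U2af1. For 18 genes no stretch recurred. Members other than Sf3a2 and Srsf2 also overlap annotated genes. Among them, Sf3b3 overlaps Cog4 (15919 counts over the 8 pools) and Ptbp1 overlaps BC005764 (2057), both on the opposite strand. Hnrnpm overlaps March2 (1572 counts) and Luc7l overlaps Gm16580 (1382), both on the same strand.

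Other genes of the splicing pathway, 123 tested of 124 listed, had 0 calls, as all genes did. None was called in either direction, with a lowest edgeR adjusted p of 0.519, and 2 (1.63%) had an unadjusted p under 0.05, against 7.58% of all genes. Negative log2 fold changes were 83 of 123 (67.5%, against 49.9% of all genes), made up of 14 of 19 other snRNP and U2 proteins, 17 of 21 tri-snRNP genes, 14 of 23 Prp19, catalytic step and exon junction genes, 8 of 9 SR protein kinase and import genes, 29 of 43 other regulators and 1 of 8 minor spliceosome genes. The list medians ran from -0.13 for other snRNP and U2 proteins to 0.07 for the minor spliceosome.

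Prpf3, a tri-snRNP protein bound to U4 and U6, was at 97.0, 98.2, 76.3 and 91.7 CPM in H2afy-/- and at 116, 102, 118 and 113 CPM in H2afy+/+ pools. All H2afy-/- pools were below all H2afy+/+ pools, as for Rbm17, Pnn and Zfml, which were named after their values were seen. These 4, all lower in H2afy-/- pools, are 3.25% of the 123. Of all genes, 4.53% had groups that did not overlap, 2.35% lower and 2.18% higher in H2afy-/- pools. Prpf3 had a log2 fold change of -0.30 (SE 0.12, edgeR adjusted p = 0.594). Hnrpll, a regulator of Ptprc exons in activated lymphocytes and plasma cells, was at 8.19, 11.1, 6.43 and 4.72 CPM in H2afy-/- and at 4.59, 2.91, 4.06 and 5.15 CPM in H2afy+/+ pools. It was higher in H2afy-/- pools 1 to 3 than in every H2afy+/+ pool, while H2afy-/- pool 4 lay within their range (log2 fold change 0.87, SE 0.30, edgeR adjusted p = 0.519). The immunoglobulin share was 0.402%, 10.0%, 39.0% and 33.4% in H2afy-/- pools 1 to 4. In H2afy+/+ pools 1 to 4 it was 3.47%, 0.948%, 19.5% and 12.9%. Its relation to the level of Hnrpll was not tested. In the other lists the smallest unadjusted p-values belonged to Cherp (0.35) and Ddx46 (-0.22), Lsm6 (-0.30), Dhx38 (0.30) and Plrg1 (-0.20), Rnpc3 (0.22) and Zmat5 (0.09), Srpk1 (-0.25) and Tnpo3 (-0.14), and Mbnl3 (-0.29), given as log2 fold changes.

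Ratios within a pool need no scaling between pools, and 6 were compared by a 2-sided exact permutation test of all 70 assignments of pools, which cannot go below p = 0.0286. The log2 ratio of U2af1l4 to U2af1 counts was 0.45 ± 0.37 in H2afy-/- and 0.70 ± 0.33 in H2afy+/+ pools (SD, n = 4 each, exact p = 0.400). That of Sf1 to U2af2 was 2.89 ± 0.32 and 2.53 ± 0.54 (exact p = 0.286), and it was higher in the H2afy-/- pool of all 4 replicate numbers (paired exact p = 0.125, the smallest 4 pairs allow). With 1 pool left out the difference of 0.36 became 0.21 without H2afy-/- pool 2 and 0.63 without H2afy+/+ pool 2. The latter had an exact p of 0.0286, the smallest possible and outside the adjustment below, and the other 7 had exact p-values of 0.257 to 0.571. The ratio of Qk to Mbnl1, both regulators of the H2afy exons, was -3.82 ± 0.11 and -3.74 ± 0.25 (exact p = 0.657). For Tra2a to Tra2b, Mbnl2 to Mbnl1 and Luc7l to Luc7l2 the exact p-values were 0.629, 0.771 and 1. After Benjamini-Hochberg adjustment over the 6 ratios the lowest of these permutation p-values was 0.926. The ratios are of counts not scaled by exon length, so their sign does not rank the genes by level. Per kb of exon, U2af1 averaged 40.2 CPM and U2af1l4 15.0 CPM. Ratios with U2af1 or U2af2 also carry the uncertainty from sequence shared with other loci.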

How the data were processed

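RNA of sorted BLPs was sequenced as single reads of 50 bases from a low-input cDNA kit, per the labels' protocols. Per the submitters' processing notes, HISAT2 2.0.6 was the aligner and mm9 the build. Not given in the sources used here are the tool that counted genes, its annotation, whether it used strand, and how it treated multiple matches. As deposited, the values are raw counts in whole numbers per Ensembl gene, for 4 H2afy-/- and 4 H2afy+/+ pools. GENCODE M1 (NCBIM37) named 37205 of 37991 IDs. Qk had 2 IDs, and the one with counts was used.

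The test was edgeR (4.0.16) quasi-likelihood in R 4.3.3 (robust, TMM-normalized) over the 13722 genes kept by filterByExpr at a minimum count of 10, Benjamini-Hochberg threshold 0.05, checked on simulated data. CPM use TMM-scaled libraries. Exon stretches and splice sites came from NCBIM37. Alternatives were RLE and upper-quartile factors, no filter, a replicate block, no immunoglobulin genes, the immunoglobulin share as covariate, limma-voom (3.58.1), DESeq2 (1.42.0), no H2afy-/- pools 3 and 4, and each pool left out. Leaving out both pools numbered 2 was added after seeing the data.

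The main test did not pair pools, and only the replicate block and the paired ratio test read the replicate numbers as pairs. Deviations of same-numbered pools correlated at 0.19, 0.19, 0.36 and 0.41 for numbers 1 to 4. What the numbers mark is not stated, and some pools of unlike number correlated more strongly. H2afy-/- pool 1 correlated at 0.52 with H2afy+/+ pool 2, and H2afy-/- pool 3 at 0.45 with H2afy+/+ pool 4. It is therefore uncertain that same-numbered pools are pairs.

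Fully described genes were those of 3′ splice site recognition except Zrsr2, Sf3b1, Mbnl1, Mbnl2, Qk, the 8 smallest p-values, the 2 largest fold changes each way and the highest per length of each role. From each other splicing list, the 2 smallest p-values were named. The members, lists and rules were chosen with earlier results of these data known.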

Additional observations from a re-analysis of the deposited data

Results flagged for a closer look

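In 9 of 98 groups of 4 pools (49 genes in 2 genotypes), 1 pool lay far from the other 3, measured as its gap to the nearest pool divided by the group's range; the gap passed Dixon's 95% critical value for 4 samples. Chance gives about 1 in 20 for independent groups. These groups share the same pools, and the share over all genes tested was not counted, so an excess was not tested. H2afy+/+ pool 1 was the far pool for U2af1l4 (0.841), Sf3a2 (0.906), Hnrnpf (0.873) and Hnrnpk (0.874), above the others in each. H2afy+/+ pool 3 was low for Ptbp1 (0.868), H2afy+/+ pool 2 high for Rbm25 (0.909) and H2afy+/+ pool 4 high for Luc7l2 (0.930). In the H2afy-/- group, pool 2 was high for Srsf2 (0.976) and pool 3 for Srsf5 (0.883).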

How the results depend on the processing

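No splicing factor gene was called under any of the 18 alternatives, the lowest adjusted p being 0.220 with the replicate block, which changed no call among them. Over all genes, calls rose from 0 to 5 with upper-quartile factors, 16 with no filter, 15 with the replicate block, 3 without immunoglobulin genes, 3 with the immunoglobulin share as covariate and 132 with DESeq2, and were 0 to 1 with 1 pool left out. Splicing factor genes at an unadjusted p under 0.05 were 1, against 4 with the block, 2 without immunoglobulin genes, 2 without H2afy-/- pools 3 and 4, 0 with limma-voom, 0 with DESeq2 and 0 to 3 with 1 pool left out. Their median log2 fold change was -0.14 to -0.07 and 31 to 40 were negative with 1 pool left out.

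Of the 49 genes, 25 kept their sign under all 18 alternatives. Without H2afy-/- pools 3 and 4, 25 of 49 were negative, and log2 fold changes reversed for 18 genes, to 0.14 (Sf3a1), 0.21 (Prpf8), 0.032 (Snrnp70), 0.10 (Snrpd1), 0.21 (Srsf1), 0.034 (Srsf2), 0.034 (Srsf6), 0.055 (Srsf7), 0.075 (Srsf10), 0.16 (Hnrnpa1), 0.11 (Hnrnpc), 0.0053 (Hnrnpf), 0.10 (Hnrnpl), 0.17 (Hnrnpu), -0.14 (Mbnl2), 0.092 (Qk), -0.020 (Rbm39) and 0.0020 (Luc7l3). Without both pools numbered 2, they were -0.016 (U2af1), 0.10 (Prpf8), 0.016 (Srsf4) and -0.075 (Mbnl1). Prpf8 was 0.0081 with the replicate block, 0.0075 without immunoglobulin genes, 0.070 with the immunoglobulin covariate and 0.0085 with limma-voom. Snrnp70 was 0.012 without immunoglobulin genes and 0.0041 with the covariate. The cause was not tested.

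With 1 pool left out, ranges that crossed 0 were -0.56 to 0.057 (Hnrnpl), -0.20 to 0.045 (Hnrnpu), -0.35 to 0.10 (Luc7l2), -0.11 to 0.16 (Mbnl1), -0.15 to 0.15 (Prpf8), -0.15 to 0.042 (Qk), -0.016 to 0.069 (Rbm39), -0.21 to 0.027 (Sf3a1), -0.33 to 0.024 (Sf3a2), -0.050 to 0.033 (Snrnp70), -0.14 to 0.12 (Snrpd1), -0.28 to 0.092 (Srsf1), -0.094 to 0.020 (Srsf11), -0.59 to 0.0061 (Srsf2), -0.36 to 0.13 (Srsf6) and -0.12 to 0.17 (U2af1). For ratios, the difference ran from -0.18 to 0.24 (Luc7l to Luc7l2), -0.034 to 0.41 (Mbnl2 to Mbnl1), -0.16 to 0.034 (Qk to Mbnl1) and -0.026 to 0.12 (Tra2a to Tra2b). The median SE of the 49 genes was 0.16.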
